A study of Mus musculus with 6 samples.

Results

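The miR-17-92 cluster is a group of miRNAs cut from 1 transcript, Mir17hg, and 9 of its mature products were followed here in mouse fetal liver. They were chosen by name from the 1626 mature miRNAs of the deposited table: mmu-miR-17-5p, mmu-miR-17-3p, mmu-miR-18a-5p, mmu-miR-18a-3p, mmu-miR-19a-3p, mmu-miR-20a-5p, mmu-miR-20a-3p, mmu-miR-19b-3p and mmu-miR-92a-3p, written below without the species prefix. All 9 were listed, and all 9 passed the filter on low counts, which left 876 miRNAs for testing. Small RNA libraries came from total RNA of fetal liver cells of C57BL/6J embryos. The 3 wild-type (WT) libraries are numbered 1 to 3, and the 3 libraries from embryos homozygous for the miR-144/451 deletion (genotype label miR-144/451-/-, KO) are numbered 4 to 6. The labels give no embryonic day and do not say whether libraries came from separate embryos, so p-values here reflect library-to-library spread, part of which may be technical. The labels name no tissue-restricted driver of the deletion.

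A miRNA is a short RNA that an Argonaute protein carries to partly complementary messenger RNAs, which it represses; bases 2 to 8 of the miRNA, the seed, do most of the pairing. Each hairpin of a primary transcript is cut out by Drosha and then by Dicer into a duplex of a 5p and a 3p strand, of which usually one (the guide) is kept and the other (the passenger) is lost. The miR-17-92 transcript is activated by Myc and E2f factors and is known for promoting proliferation and survival of haematopoietic progenitors and B cells. Its known targets include the apoptosis factor Bim and the cell cycle inhibitor p21.

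The 6 hairpins lie in the order Mir17, Mir18, Mir19a, Mir20a, Mir19b-1 and Mir92-1 on the plus strand of chromosome 14 (GRCm38). They span 836 bases, chr14:115043671-115044506, and neighbouring hairpins are 35 to 96 bases apart. All 6 lie within an exon of the long noncoding RNA gene Mir17hg (ENSMUSG00000089726.2, chr14:115042879-115046727, GENCODE M21). The 9 mature sequences, all found in RefSeq (GRCm38.p6), are shown because shared seeds decide which members can be read as 1 activity; capitals mark bases 2 to 8, counted from the 5′ end.
miR-17-5p: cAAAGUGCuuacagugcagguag
miR-20a-5p: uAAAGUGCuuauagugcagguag
miR-18a-5p: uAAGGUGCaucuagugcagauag
miR-19a-3p: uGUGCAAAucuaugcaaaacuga
miR-19b-3p: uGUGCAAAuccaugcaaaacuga
miR-92a-3p: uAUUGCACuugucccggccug
miR-17-3p: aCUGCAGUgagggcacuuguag
miR-20a-3p: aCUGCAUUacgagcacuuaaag
miR-18a-3p: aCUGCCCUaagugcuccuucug
miR-17-5p and miR-20a-5p share a seed and differ by C1U and C12U (miR-17-5p base first). miR-19a-3p and miR-19b-3p share another seed and differ by U11C. miR-18a-5p differs from the miR-17-5p seed by A4G, and miR-92a-3p and the 3 passenger strands each have a seed of their own within the cluster. The mature forms are 21 to 23 bases long and a read covers a whole miRNA, so levels were compared as reads, without division by length; reads per molecule can still differ between sequences through adapter ligation.

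The 9 members together were a sizeable part of all miRNA reads in every library. They held 5.30%, 4.71% and 3.83% of miRNA counts in WT libraries 1 to 3 and 6.21%, 5.04% and 4.89% in KO libraries 4 to 6, and the widest Wilson 95% interval ran from 6.19% to 6.22%. The means were 4.62% ± 0.741 in WT and 5.38% ± 0.721 in KO (SD, n = 3 each), and the groups overlapped. The deleted locus itself made up 17.6% to 24.1% of the counts in WT and 0.0214% to 0.0231% in KO. Counted without the locus products, the cluster took 5.83% ± 1.10 in WT and 5.38% ± 0.721 in KO, and the direction turned. Totals ranged from 16243894 to 27089133 miRNA counts per library. At that depth the Wilson 95% half-width was at most 0.871% of the value for the 6 members above 1000 CPM (counts scaled to 1000000 per library) and at most 5.93% for any member. Such intervals hold no spread between libraries. They treat reads as separate draws, but reads lacking molecular identifiers can be copies of 1 molecule, so they can understate counting error.

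The 6 guide strands carried nearly all of the cluster's reads, at very different levels. They made up 98.7% to 98.9% of the 9 members' counts in each library, and the 3 passenger strands the rest. Over the 6 libraries miR-92a-3p took 27.0% ± 2.65 of the cluster's counts, miR-20a-5p 26.3% ± 1.28, miR-17-5p 18.8% ± 0.772 and miR-19b-3p 14.3% ± 1.13 (SD, n = 6). miR-19a-3p and miR-18a-5p followed with 6.31% ± 0.698 and 6.04% ± 0.337. The most abundant guide strand exceeded the least abundant by 4.02-fold to 5.42-fold within a library, although 1 transcript holds all 6. Reads of miR-92a-3p and miR-19b-3p also include any from their copies on the X chromosome. Among the passenger strands miR-17-3p stood apart at 0.989% ± 0.0399, against 0.136% ± 0.0158 for miR-20a-3p and 0.133% ± 0.0208 for miR-18a-3p.

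**Figure D1:**
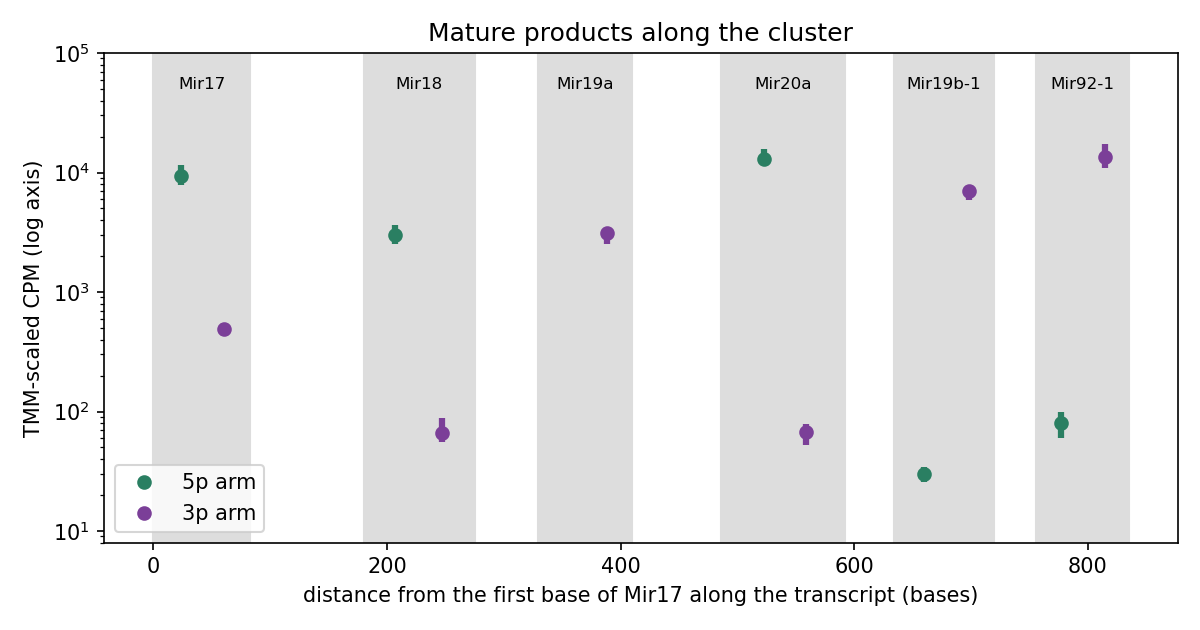
TMM-scaled CPM (log axis) of the mature products against distance in bases from the first base of Mir17; points are means of the 6 libraries, bars run from the lowest to the highest library, and grey bands are hairpins. The first, the fourth and the last hairpin give the 3 highest strands. miR-19a-5p has no entry in the RefSeq table used and is not drawn.

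The order of the levels was partly fixed and partly not. Ratios within a library do not depend on scaling. miR-20a-5p exceeded miR-17-5p in 6 of 6 libraries, by 1.35-fold to 1.53-fold, and miR-17-5p exceeded miR-19b-3p in 6 of 6, by 1.19-fold to 1.51-fold. miR-19b-3p exceeded miR-19a-3p, its near-twin in sequence, by 2.17-fold to 2.34-fold, and miR-18a-5p exceeded miR-17-3p by 5.63-fold to 6.59-fold. For 3 pairs, neighbours in the order did not differ beyond their spread. miR-92a-3p was above miR-20a-5p in 3 of 6 libraries (ratio 0.898 to 1.29), miR-19a-3p above miR-18a-5p in 3 of 6 (0.911 to 1.20), and miR-20a-3p above miR-18a-3p in 4 of 6 (0.774 to 1.18).

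Some pairs of guide strands kept a nearly constant ratio over all 6 libraries. The log2 ratio of miR-17-5p to miR-18a-5p, from the first 2 hairpins, had an SD of 0.05 over the 6 libraries (range 1.58 to 1.70), and that of miR-19b-3p to miR-19a-3p an SD of 0.05 (1.12 to 1.23). The ratio of miR-20a-5p to miR-17-5p had an SD of 0.07. The loosest of the 15 guide pairs was miR-19a-3p with miR-92a-3p, with an SD of 0.28 and a log2 ratio from -2.40 to -1.71. The 4 pairs with the largest SD all held miR-92a-3p. For all 15 pairs the WT and KO ratios overlapped.

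**Figure D2:**
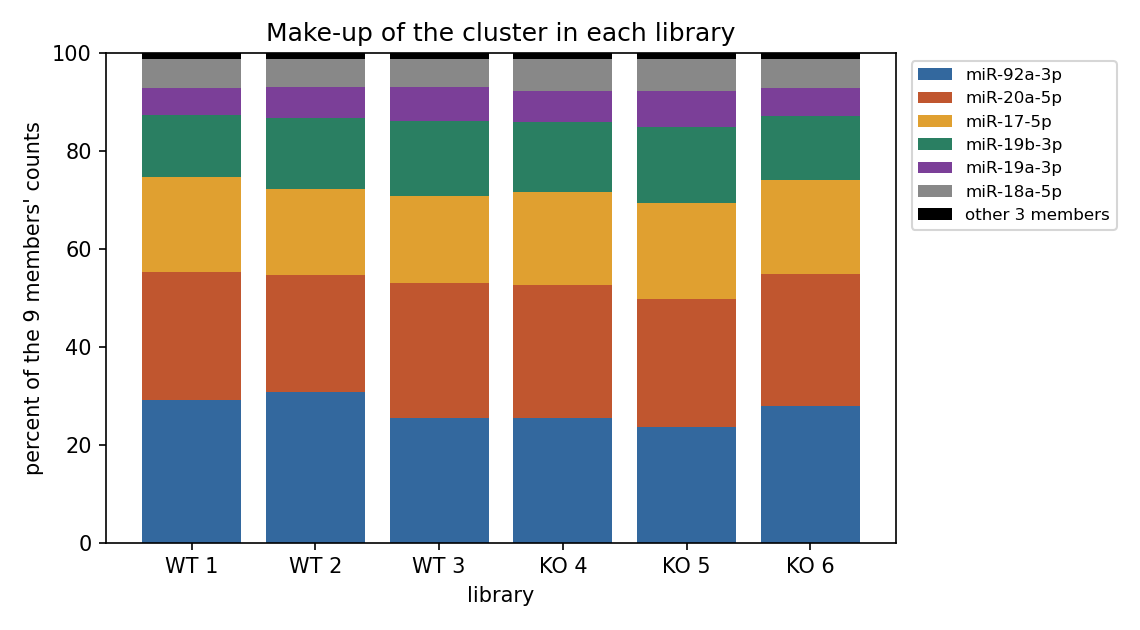
Percent of the 9 members' counts taken by each member in each library (stacked bars from 0 to 100). The share of miR-92a-3p lies between 23.6% (KO 5) and 30.7% (WT 2).

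In KO against WT fetal liver, 0 of the 9 members passed the test. Levels are TMM-scaled CPM, that is, counts per 1000000 of a library size adjusted so that the typical miRNA is level between libraries, and differences are log2 folds of KO over WT with edgeR's quasi-likelihood test, adjusted by Benjamini-Hochberg over all 876 miRNAs. Of all 876, 7 (0.799%) passed, 3 of them products of the deleted locus. At an unadjusted p under 0.05 the members still numbered 0, against 11.3% of all tested; DESeq2, which called 1% of the miRNAs it tested, and limma-voom, which called 0.913%, also called 0 members. All 9 log2 folds were below 0 after TMM scaling, between -0.31 and -0.04 with a median of -0.09, where 457 of the 873 miRNAs outside the locus were below 0 and their median was -0.01. The folds are small beside their errors and the members share a transcript and the same libraries, so the 9 signs are not separate observations. In percent of the whole library all 9 were above 0 (median 0.28, beside 0.34 for all 873 tested outside the locus), and with upper-quartile scaling 7 were above 0. In percent of the library, only miR-17-3p of the 9 had all 3 KO values above the WT values, as did 31.2% of all tested miRNAs.

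miR-92a-3p, known for restraining blood vessel growth through an integrin subunit, showed the largest difference among the members after TMM scaling, though not with WT library 1 left out (miR-18a-3p, -0.22) or without a scaling factor, where its log2 fold of 0.059 was the smallest of the 9. Its WT libraries 1, 2 and 3 held 17459, 16249 and 11185 CPM, and its KO libraries 4, 5 and 6 held 12961, 10811 and 12556 CPM. WT libraries 1 and 2 were high, while WT library 3 lay among the KO libraries. The log2 fold was -0.31 (95% interval -0.75 to 0.13, SE 0.19; edgeR adjusted p = 0.598). Leaving out WT library 3 gave -0.55 and leaving out WT library 1 gave -0.18, and the adjusted p over all alternatives lay between 0.303 and 0.898.

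The seed pair miR-17-5p and miR-20a-5p, the strands known to repress p21 and E2f1, differed less. The WT libraries held 11603, 9368 and 7855 CPM of miR-17-5p and the KO libraries 9748, 8945 and 8633 CPM. Its KO values lay inside the WT range, and its log2 fold was -0.08 (95% interval -0.46 to 0.31, SE 0.16; edgeR adjusted p = 0.939). Those of miR-20a-5p were 15759, 12638 and 12023 CPM in the WT libraries and 13732, 12041 and 12165 CPM in the KO libraries. Only WT library 1 lay above the KO range, and the log2 fold was -0.09 (95% interval -0.42 to 0.24, SE 0.14; edgeR adjusted p = 0.854).

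The miR-19 strands, which repress Bim and carry much of the cluster's oncogenic activity in B cells, fluctuated together. miR-19b-3p reached 7673, 7664 and 6627 CPM in the WT libraries and 7266, 7209 and 5910 CPM in the KO libraries, a log2 fold of -0.11 (95% interval -0.43 to 0.21, SE 0.13; edgeR adjusted p = 0.814). miR-19a-3p reached 3297, 3300 and 3047 CPM in the WT libraries and 3222, 3315 and 2522 CPM in the KO libraries, a log2 fold of -0.09 (95% interval -0.44 to 0.26, SE 0.15; edgeR adjusted p = 0.871). KO library 6 was the lowest library for both, and the other 5 libraries spanned 3047 to 3315 CPM for miR-19a-3p.

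miR-18a-5p, which has its own seed and is known for repressing Ctgf, had the smallest fold of the 9 after TMM scaling. It did not with WT library 1 left out (0.10, against -0.01 for miR-20a-3p). Nor did it without WT library 2, WT library 3 or KO library 6. With upper-quartile scaling its log2 fold was 0.065, against 0.0032 for miR-19b-3p. Relative to the cluster's own total it was 0.11, against -0.015 for miR-18a-3p. With no scaling factor the log2 fold of miR-18a-5p was 0.33, the largest of the 9. Its levels were 3618, 2998 and 2530 CPM in the WT libraries and 3240, 2992 and 2659 CPM in the KO libraries, a log2 fold of -0.04 (95% interval -0.44 to 0.36, SE 0.17; edgeR adjusted p = 0.999). All KO values lay within the WT range. The 3 passenger strands had overlapping groups as well. miR-17-3p ranged from 431 to 549 CPM, miR-20a-3p from 52.5 to 77.9 CPM and miR-18a-3p from 56.0 to 88.2 CPM, and their log2 folds were -0.08 ± 0.16, -0.06 ± 0.21 and -0.14 ± 0.23 (SE). After TMM scaling the WT and KO values of all 9 members overlapped, while 21.8% of all tested miRNAs had values that did not. The 95% intervals reach down to a log2 fold of -0.75 (miR-92a-3p) and up to 0.43 (miR-20a-3p).

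**Figure D3:**
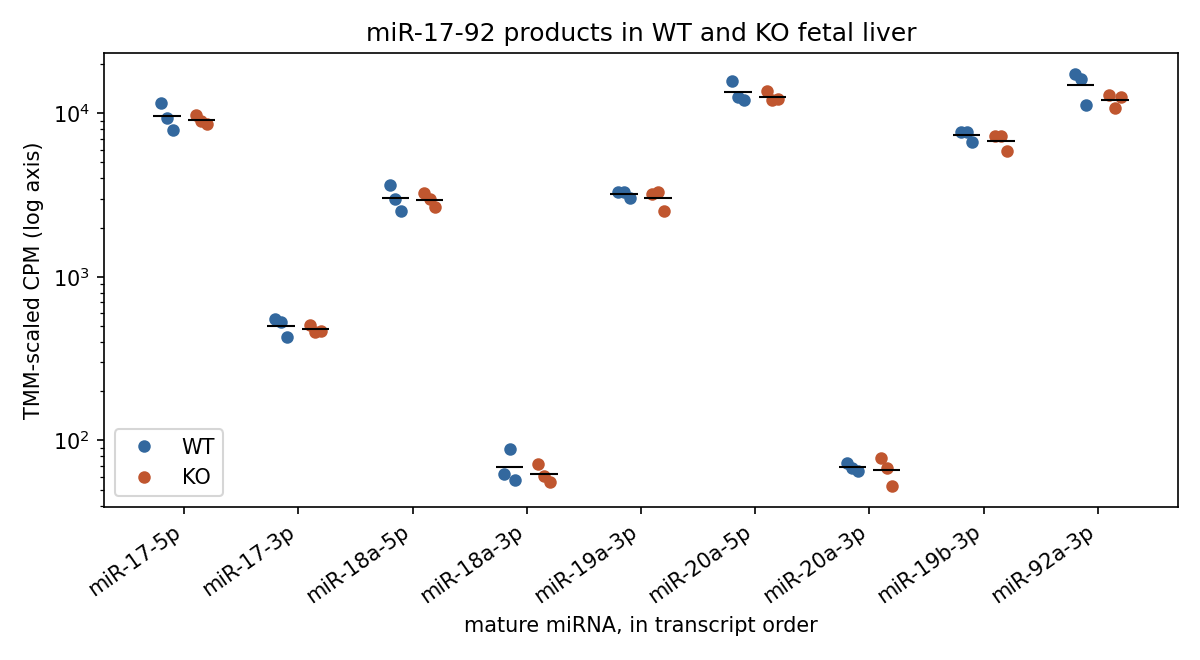
TMM-scaled CPM (log axis) of the 9 members in transcript order; points are libraries (blue WT, orange KO) and black lines group means. The orange points overlap the blue points for all 9, from about 52.5 CPM (lowest miR-20a-3p) to 17459 CPM (highest miR-92a-3p).

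**Figure D4:**
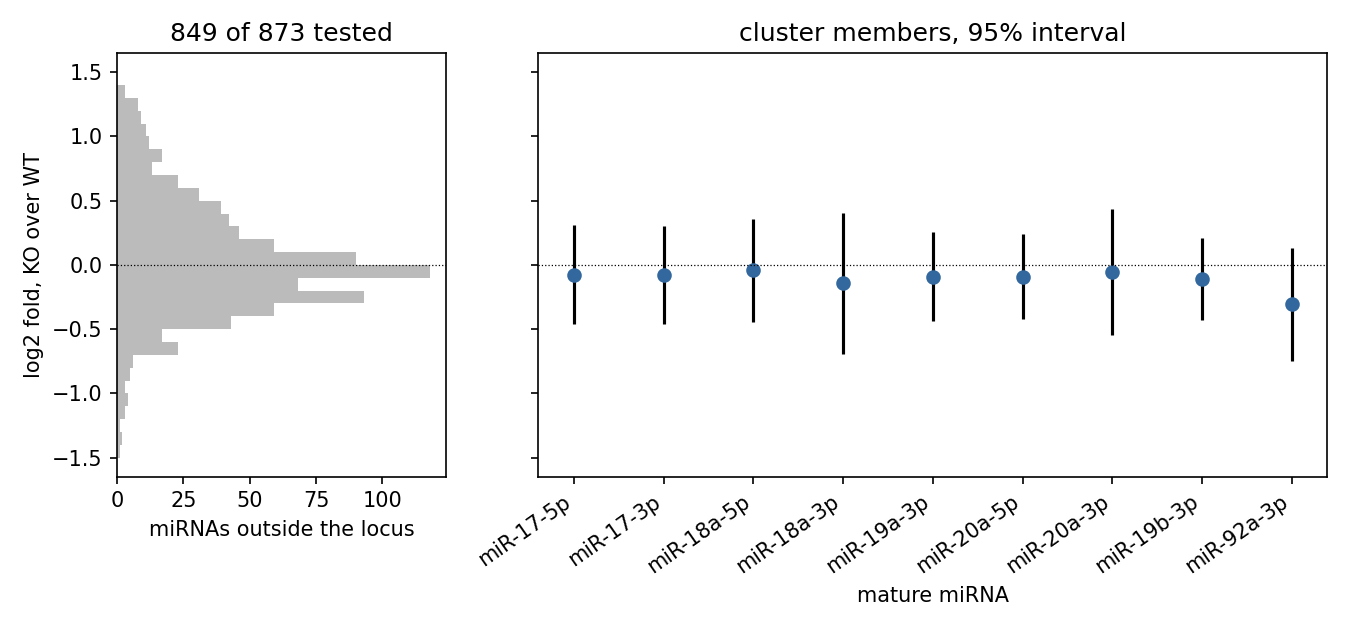
Left, histogram of the log2 fold of KO over WT for the 849 of 873 tested miRNAs outside the locus that lie within 1.5 of 0; right, the 9 members with 95% intervals. All 9 intervals include 0, and miR-92a-3p is the lowest at -0.31.

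The members tended to be high or low in the same libraries within each genotype. Relative to its own mean over the 6 libraries, the members' mean log2 level was 0.19 and 0.12 in WT libraries 1 and 2 and -0.15 in WT library 3, and 0.08, -0.06 and -0.18 in KO libraries 4, 5 and 6. All 9 members were below their own mean in WT library 3 and in KO library 6. These were the libraries highest in hepatocyte miRNAs (miR-122-5p, miR-192-5p and miR-194-5p, all 3 tested), whose summed level was 131534 CPM in WT library 3 and 102282 CPM in KO library 6, against 33898 to 56092 CPM in the other 4. Of the 3 erythroid markers, miR-451a and miR-144-3p are products of the deleted locus. In WT libraries 1, 2 and 3 miR-451a held 232232, 152852 and 194549 CPM and miR-144-3p 22912, 20985 and 18880 CPM, so that only the latter was lowest in WT library 3. The third, miR-486a-5p, was lowest in WT library 3 and KO library 6, at 43832 and 49709 CPM against 56015 to 82223 CPM. The endothelial miR-126a-3p was highest in the same libraries, at 8382 and 8821 CPM against 5878 to 6220 CPM. In bulk tissue, fewer cells of a type and less of a miRNA per cell cannot be told apart, and the part of cell mixture in the members' levels was not tested. When miR-122-5p was added to the model, which was decided after the values were seen, 0 members passed and the median log2 fold was -0.10.

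The other marker lists also bear on the tissue label. The pan-blood miR-142a-3p ranged from 18219 to 29809 CPM and the myeloid miR-223-3p from 8636 to 20383 CPM, so blood cell and hepatocyte miRNAs were abundant in every library. The lowest libraries for miR-142a-3p were KO library 6 and WT library 3, at 18219 and 21826 CPM. For miR-223-3p the lowest was KO library 4. The lymphoid marker miR-150-5p was low, at 22.7 to 65.8 CPM, and within each genotype highest in WT library 3 and KO library 6. Summed mesenchymal miRNAs (miR-143-3p, miR-145a-5p and miR-199a-3p) were highest there, at 3013 and 2857 CPM against 1953 to 2611 CPM. Of these, miR-199a-3p was highest in WT library 1. Summed epithelial miRNAs (miR-200b-3p and miR-141-3p) reached 416 and 312 CPM there, against 164 to 239 CPM. Within each genotype miR-141-3p alone was lowest there. Muscle miRNAs (miR-1a-3p, miR-206-3p and miR-133a-3p, all 3 tested) summed to 400 CPM in WT library 1 and 83.5 CPM in KO library 4, and to 13.3 to 20.5 CPM in the other 4. WT library 1 was also the library with the highest miR-17-5p, miR-18a-5p, miR-20a-5p and miR-92a-3p. Without it the log2 folds of the first 3 of these were 0.08, 0.10 and 0.04, and 0 members were called.

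**Figure D5:**
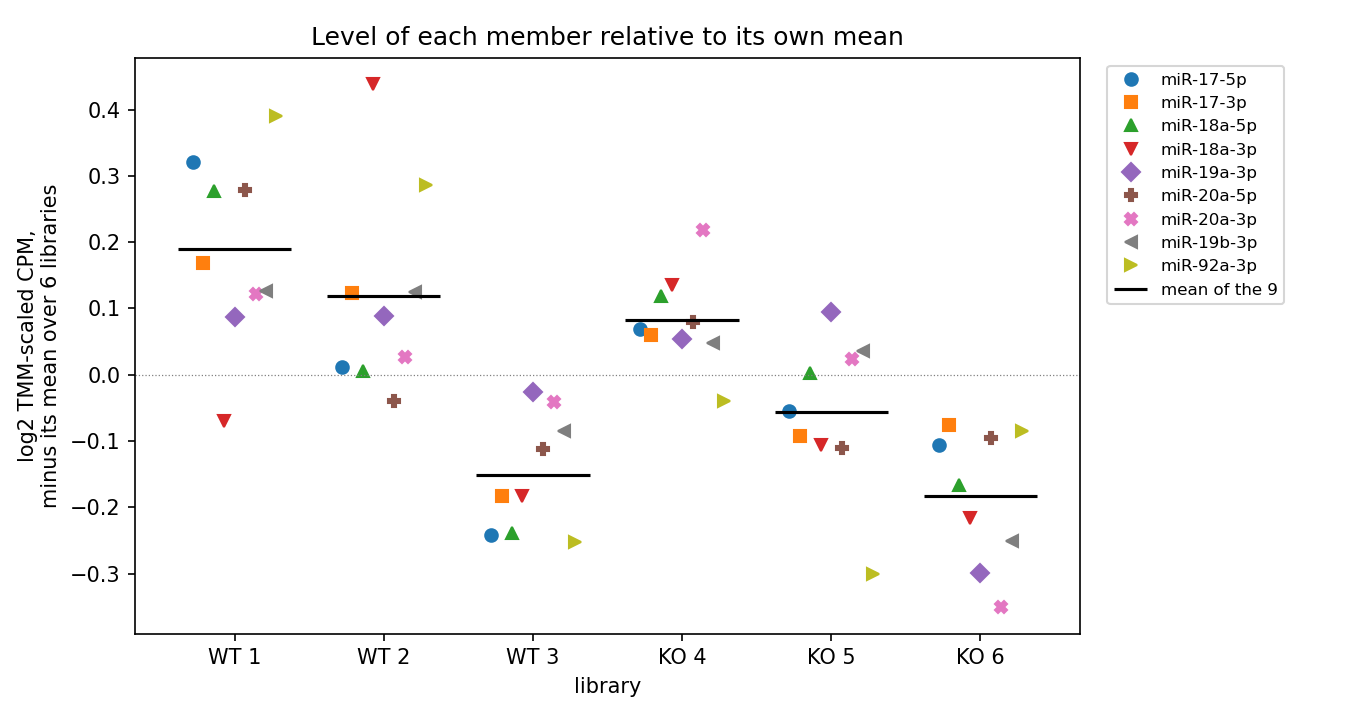
Log2 TMM-scaled CPM of each member minus its own mean over the 6 libraries (symbols), and the mean of the 9 (black lines). All 9 symbols lie below 0 in WT 3 and KO 6; in WT 1 only miR-18a-3p does.

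The miRNAs with the most similar library profile were found by the root mean square distance of log2 levels, each centred on its mean over the 6 libraries, from the members' mean profile. Among 451 miRNAs outside the cluster with a mean of at least 10 CPM, the nearest 5 were miR-296-3p (distance 0.07), miR-1187 (0.08), miR-467h (0.08), miR-669d-5p (0.08) and miR-378b (0.08), beside a median distance of 0.32. miR-467h and miR-669d-5p had nearly equal levels in every library (77.0 and 77.2 CPM in WT library 1, for example), so they may be 1 measured signal. The members themselves lay at 0.05 (miR-17-3p) to 0.17 (miR-18a-3p) from their own mean, to which each contributes. The first of these, miR-296-3p, held 433, 473 and 361 CPM in the WT libraries and 429, 404 and 386 CPM in the KO libraries. The paralogues of the cluster that were searched were not the nearest: miR-106b-3p ranked 26th, miR-93-5p 33rd and miR-25-3p 99th of the 451. The paralogue miR-18b-5p was left out of the search because its counts nearly equal those of miR-18a-5p. The distance of miR-18a-5p from the members' mean was 0.07.

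Each hairpin kept a strong preference for 1 arm. The 5p strand was the guide in Mir17, Mir18 and Mir20a, and the 3p strand in Mir19a, Mir19b-1 and Mir92-1. The other 3 named products of the transcript, miR-19a-5p, miR-19b-1-5p and miR-92a-1-5p, are the passengers of the latter. The preference differed widely between hairpins: guide reads exceeded passenger reads 17.6-fold to 21.1-fold in Mir17 and 34.0-fold to 58.3-fold in Mir18. In Mir20a the excess was 176-fold to 232-fold, in Mir92-1 138-fold to 191-fold, in Mir19b-1 212-fold to 255-fold and in Mir19a 181-fold to 330-fold. The passenger therefore took 5.01% of the reads of Mir17 on average but 0.378% to 2.16% of those of the other 5. The median was 6.90% over 296 hairpins of any abundance that averaged at least 10 counts per arm. Hairpins with a scarcer passenger were left out of that median. miR-17-3p was a larger part of its hairpin than miR-20a-3p in 6 of 6 libraries. The hairpins of Mir17 and Mir20a, whose guides share a seed, are shown with the guide in capitals.
Mir17: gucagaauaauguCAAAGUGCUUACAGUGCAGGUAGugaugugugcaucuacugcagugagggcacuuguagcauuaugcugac
Mir20a: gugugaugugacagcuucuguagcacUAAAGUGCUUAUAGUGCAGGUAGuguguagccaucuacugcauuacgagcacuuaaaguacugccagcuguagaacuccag
The passengers of this pair, miR-17-3p and miR-20a-3p, differ at 6 of 22 bases, against 2 of 23 in the guides.

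The arm ratio was tested between genotypes for all 6 hairpins, and 0 passed (limma with trend on log2((5p + 1)/(3p + 1)), adjusted over 296 hairpins; 0 of 296, that is 0%, passed in all, and 16 had an unadjusted p under 0.05). The largest difference was in Mir19a. Its guide exceeded its passenger 330-fold, 302-fold and 317-fold in WT libraries 1 to 3 and 232-fold, 181-fold and 290-fold in KO libraries 4 to 6, so all 3 KO values lay below the WT values; values did not overlap for 11.1% of the 296 hairpins. The difference in the 5p to 3p ratio was 0.46 on the log2 scale (SE 0.21; limma Benjamini-Hochberg adjusted p = 0.803, 0.487 to 0.994 over the alternatives). Without KO library 5 it was 0.29, and with any other library left out 0.43 to 0.62. It came with counts of miR-19a-5p of 183, 264 and 192 in WT and 276, 332 and 227 in KO. In CPM miR-19a-5p averaged 10.2 ± 0.681 in WT and 13.7 ± 4.82 in KO (SD, n = 3 each), with a log2 fold of 0.42 ± 0.29 (SE), edgeR adjusted p = 0.612. The other 5 hairpins differed by -0.01 to 0.17 on the log2 scale, with limma adjusted p of 0.975 or more.

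miR-19b-3p and miR-92a-3p have a further copy on the X chromosome, in the Mir106a-363 cluster, and their reads cannot be assigned to a copy. The passengers can, since they differ between the copies, as the 2 hairpins of miR-92a-3p (capitals) show.
Mir92-1, chromosome 14: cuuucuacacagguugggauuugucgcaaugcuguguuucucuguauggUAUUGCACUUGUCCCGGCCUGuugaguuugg
Mir92-2, chromosome X: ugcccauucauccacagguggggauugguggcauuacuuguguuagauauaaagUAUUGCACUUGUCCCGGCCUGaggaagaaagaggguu
miR-92a-1-5p had 10068 reads over the 6 libraries and miR-92a-2-5p 24, so the chromosome 14 copy gave 99.8% of passenger reads (Wilson 95% interval 99.6% to 99.8%). miR-19b-1-5p had 3768 reads and miR-19b-2-5p 13, a share of 99.7% (99.4% to 99.8%). The share was at least 99.1% in each of the 6 libraries for both. How many guide reads each copy gave was not tested, as the copies may differ in how much passenger is kept.

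miR-18a-5p could not be separated from its X-linked paralogue. The counts of miR-18b-5p differed from those of miR-18a-5p by at most 0.180% in any library (66214 and 66095 counts in WT library 1, for example), although the sequences differ by A18U and A20U (miR-18a-5p base first). It was the only miRNA with counts within 5% of a member's in every library.
miR-18a-5p: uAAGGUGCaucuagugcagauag
miR-18b-5p: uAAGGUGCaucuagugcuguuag
The opposite arms were not alike: miR-18a-3p had 1095 to 2130 counts per library and miR-18b-3p 7 to 21. The values of miR-18a-5p and miR-18b-5p are therefore 1 measured signal, and how the authors counted reads that match both is not given in the sources used here. miR-19a-3p and miR-19b-3p, which differ at 1 base, and miR-17-5p and miR-106a-5p, which differ by U10A, did not have such matching counts: miR-17-5p had 156914 to 226151 counts per library and miR-106a-5p 1692 to 2844.

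By seed, the cluster supplied a large minority of reads in 2 families and all of those in the miR-19 family, while the share of miR-18a-5p in its own family cannot be given because it shares its signal with miR-18b-5p. In the AAAGUGC family (6 miRNAs listed), miR-17-5p and miR-20a-5p together gave 43.8%, 40.2% and 43.7% of reads in WT and 40.6%, 37.3% and 39.7% in KO; the groups overlapped. The rest came almost entirely from miR-93-5p and miR-106b-5p of the Mir106b-25 cluster on chromosome 5, which averaged 19603 ± 3464 and 11338 ± 1708 CPM over the WT libraries and 20952 ± 1318 and 12610 ± 691 CPM over the KO libraries (SD, n = 3 each). After TMM scaling their log2 folds were 0.10 (SE 0.15) and 0.15 (SE 0.14), opposite in sign to those of miR-17-5p and miR-20a-5p. With that scaling 0 of the 4 passed (edgeR Benjamini-Hochberg adjusted p 0.695 to 0.939). In percent of the library all 4 were above 0 (log2 ratios 0.28 to 0.52). In the AUUGCAC family miR-92a-3p gave 39.9%, 37.0% and 39.3% in WT and 37.8%, 29.7% and 41.7% in KO, where KO library 5 was the lowest and KO library 6 the highest of all. Its main partner miR-25-3p averaged 23378 ± 5662 CPM in the WT libraries and 21124 ± 3932 CPM in the KO libraries (SD, n = 3 each). Its log2 fold was -0.15 ± 0.22 (SE), edgeR adjusted p = 0.853. In the GUGCAAA family the 2 miR-19 strands were the only miRNAs with the seed in the table, among the 1376 names with a RefSeq sequence.
miR-93-5p: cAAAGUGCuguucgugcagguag
miR-106b-5p: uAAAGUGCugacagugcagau
miR-25-3p: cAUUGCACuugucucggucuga
These 3 are shown because they share the capitals (bases 2 to 8) with miR-17-5p or miR-92a-3p and outnumber it in 6 of 6 libraries.

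The X-linked paralogues with the miR-17 seed were scarce. miR-20b-5p reached 116, 120 and 114 CPM in the WT libraries and 90.6, 101 and 103 CPM in the KO libraries. For miR-106a-5p the WT libraries held 108, 118 and 96.0 CPM and the KO libraries 85.3, 102 and 86.8 CPM. After TMM scaling all 3 KO values of miR-20b-5p were below its WT values, as for 5.94% of all tested miRNAs. Its log2 fold was -0.25 ± 0.16 (SE), edgeR adjusted p = 0.598. In percent of the library the direction turned. All 3 KO values of miR-20b-5p were then above its WT values, as for 31.2% of all tested miRNAs. Of the 16 miRNAs of both paralogue clusters 13 were tested. Of these 13, 11 were below 0 after TMM scaling, with a median log2 fold of -0.22, and 0 passed. Of the 873 tested miRNAs outside the locus, 457 were below 0, with a median of -0.01. The 13 include miR-18b-5p, which shares its signal with miR-18a-5p, and scarce strands such as miR-18b-3p (7 to 21 counts per library). In percent of the library only miR-18b-3p, miR-20b-3p, miR-363-3p and miR-363-5p of the 13 were below 0 (log2 ratios -0.44 to -0.22).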

How the data were processed

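Mature miRNAs were counted by small RNA sequencing in 6 fetal liver libraries. The authors deposited raw read counts per mature miRNA and, as a second set of columns, percent of the library's total miRNA count; each deposited percent equalled its count over the total to within 4.96e-09. Reads were adapter-trimmed with cutadapt, per the submitters' processing notes; the aligner, annotation release, genome build and handling of multiply matching reads are not given in the sources used here. HITS-CLIP is named in the design text, but the labels describe sequencing of miRNA from total RNA.

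Counts were tested in R 4.3.3 with edgeR 4.0.16 (quasi-likelihood test, TMM scaling, filterByExpr; 876 of 1626 miRNAs kept), Benjamini-Hochberg adjusted p under 0.05, on the whole table. SE is the absolute log2 fold over the square root of F; intervals use its t quantile. DESeq2 1.42.0 and limma-voom (limma 3.58.1), other scalings, no filter and each library left out were alternatives. Arm ratios were tested with limma for hairpins averaging at least 10 counts per arm. The fitting code was tested on simulated data. Sequences and positions are from RefSeq (GRCm38.p6; 1376 of 1626 names matched) and GENCODE M21. Named miRNAs were the 9 members, the other products of the transcript, the paralogue list, same-seed miRNAs, near-identical partners (counts within 5%), the 5 nearest profiles and marker miRNAs. Members and lists were chosen with earlier results of these data known.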

Additional observations from a re-analysis of the deposited data

How the results depend on the processing

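The cluster's 0 calls held under all 15 alternatives, as did the 0 calls for arm ratio under all 9 of its own. No paired analysis was possible because the groups share no replicate numbers. Over all miRNAs, 7 were called with TMM, 4 with RLE or upper-quartile scaling, 61 unscaled and 15 with DESeq2. With miR-122-5p as covariate (chosen after seeing the data) 19 were called, and with a library left out 3 to 4. After removal of the locus 1 of 853 was called. The 3 locus products among the 7 were then no longer tested. The cause of the other changes was not tested. With no scaling factor the log2 folds became 0.29 (miR-17-5p), 0.29 (miR-17-3p), 0.33 (miR-18a-5p), 0.22 (miR-18a-3p), 0.28 (miR-19a-3p), 0.28 (miR-20a-5p), 0.32 (miR-20a-3p), 0.26 (miR-19b-3p) and 0.059 (miR-92a-3p). With upper-quartile scaling they were 0.025, 0.028, 0.065, 0.023, 0.015, 0.063 and 0.0032 for miR-17-5p, miR-17-3p, miR-18a-5p, miR-19a-3p, miR-20a-5p, miR-20a-3p and miR-19b-3p, and relative to the cluster's own total 0.074, 0.063, 0.11, 0.037, 0.050, 0.068 and 0.025. Leaving out a library moved the folds of miR-17-5p from -0.27 to 0.081, miR-18a-5p from -0.23 to 0.10, miR-18a-3p from -0.32 to 0.016, miR-19a-3p from -0.21 to 0.011, miR-20a-5p from -0.24 to 0.037 and miR-20a-3p from -0.27 to 0.075. It moved the arm ratio differences of Mir17 from -0.041 to 0.091, Mir18 from -0.098 to 0.29, Mir20a from -0.14 to 0.064, Mir19b-1 from -0.030 to 0.10, Mir19a from 0.29 to 0.62 and Mir92-1 from 0.057 to 0.27. The summed cluster's log2 fold was -0.15 with TMM, 0.22 with no scaling factor and -0.33 to -0.034 with a library left out. The WT share was 5.83% with the locus left out of the total. Without miR-19b-3p and miR-92a-3p in the total, the shares were 44.8% (miR-20a-5p), 32.0% (miR-17-5p), 10.7% (miR-19a-3p), 10.3% (miR-18a-5p), 1.69% (miR-17-3p), 0.232% (miR-20a-3p) and 0.227% (miR-18a-3p). Counting error with reads taken as separate draws (Wilson 95% half-width) was at most 5.93% of the value for any member.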
